A study of Mus musculus with 9 samples.

Results

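The genes described here encode plasma proteins that the liver is known to make less of during inflammation, the negative acute phase proteins. The list holds 8 genes: Alb, Ttr, Rbp4, Serpina6, Ahsg, Fetub, Ambp and Gc. Members were chosen by gene symbol, taking each probe set that the array's annotation assigns to that symbol alone. A probe set is a group of short array probes for 1 transcript. This gave 10 probe sets of 7 genes among 45037 probe sets, 4 of them for Ttr and 1 for each of the other 6 genes. Gc was not analysed here.

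Liver RNA was measured on 1 array per mouse in female MRL +/+ mice aged 11 weeks, an inbred strain prone to autoimmune disease. DCAC mice (n = 3) received dichloroacetyl chloride at 0.2 mmol/kg, DCAA mice (n = 3) received dichloroacetic anhydride at 0.2 mmol/kg, and controls (n = 3) received the corn oil vehicle alone, although the labels call them untreated. Injections were intraperitoneal, 100 µl of oil 2 times a week over 6 weeks, with killing 24 h after the final dose. No genetic modification was involved, and each group is 1 strain, 1 sex and 1 dose.

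In an acute phase response, cytokines that include interleukin 6 act on hepatocytes, which then make more of some plasma proteins, such as serum amyloid A, and less of others. The decline of albumin, transthyretin and retinol binding protein in the plasma of ill patients is the textbook example of the second class. Hepatocytes transcribe these genes at very high rates, under factors such as HNF1, HNF4 and the C/EBP family.

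The 7 genes belong to a few families and chromosomal clusters. In the RefSeq gene table of GRCm38.p6, Alb lies on chromosome 5 next to Afp and Afm, which encode proteins related to albumin. Ahsg and Fetub, which encode the fetuins A and B, are direct neighbours on chromosome 16, followed by Hrg and Kng2. Serpina6 lies between Serpina10 and Serpina16 in a serpin cluster on chromosome 12. Ambp, Rbp4 and Ttr lie on chromosomes 4, 19 and 18, with no other member next to them.

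Upstream sequences of Alb, the best studied promoter of the group, and of the neighbours Ahsg and Fetub are shown because their promoters can be searched for sites of the hepatocyte factors named above. Each is the 150 bases before the transcription start from RefSeq (GRCm38.p6), read 5′ to 3′ on the gene's strand. The windows are chr5:90460720-90460869 (plus strand) for Alb, chr16:22891865-22892014 (plus strand) for Ahsg and chr16:22918232-22918381 (plus strand) for the first of 2 annotated Fetub starts. Capitals mark a match to GTTAAT, a core sequence of the HNF1 site, or to TTNNGCAA, a C/EBP type sequence, on either strand.
Alb: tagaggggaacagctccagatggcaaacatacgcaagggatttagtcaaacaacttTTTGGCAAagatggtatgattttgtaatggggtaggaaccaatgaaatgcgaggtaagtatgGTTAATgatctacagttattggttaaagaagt
Ahsg: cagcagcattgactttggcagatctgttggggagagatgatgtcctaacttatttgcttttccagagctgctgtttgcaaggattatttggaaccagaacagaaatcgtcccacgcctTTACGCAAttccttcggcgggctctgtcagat
Fetub: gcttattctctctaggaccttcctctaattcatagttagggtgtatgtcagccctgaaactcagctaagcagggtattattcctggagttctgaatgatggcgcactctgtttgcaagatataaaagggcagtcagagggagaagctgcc

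The Alb window holds 1 match to each motif, with no overlap between them, and the Ahsg window holds 1 match to TTNNGCAA. No match to these letters lies in the Fetub window shown. Among 32851 RefSeq promoter windows of this length, 3.71% hold GTTAAT, 5.46% hold TTNNGCAA and 0.283% hold both. A match is a description of the sequence and says nothing of binding.

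The array labelled control 2 stood apart from the rest, and for these genes the difference was extreme. Ttr, which carries thyroxine and retinol binding protein in plasma, had a signal of 22.1 on control 2, below the 25th percentile of that array, against 43774 and 44528 on controls 1 and 3. The other 3 Ttr probe sets read 450, 272 and 296 on control 2 and 35155 to 45672 on controls 1 and 3. Alb, the main protein of plasma, read 1678 on control 2 and 43840 and 45064 on controls 1 and 3, so that control 2 held 3.77% of the control mean. Serpina6, which encodes the corticosteroid carrier transcortin, kept the largest share of the 7 genes at 5.89%. Control 2 held 1.28% of the control mean for Fetub, 0.511% for Ambp, 0.454% for Rbp4, 0.227% for Ahsg and 0.0501% for Ttr by its brightest probe set. Together the 10 probe sets carried 0.013% of the summed signal of control 2 and 0.955% to 1.28% on the other 8 arrays.

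Other genes on control 2 departed from liver in the same way. All 16 hepatocyte markers, a list without members, were lower on it than on each of the other 8 arrays, with a summed signal of 28128 against 461966 and 480934 on controls 1 and 3. All 13 kidney markers with a probe set were higher on it than on each of the other 8, with a sum of 213320 against 1395 to 1736 on controls 1 and 3. Umod, which encodes the kidney protein uromodulin, had a signal of 27216 on control 2 where the other 8 arrays gave 36.1 to 69.6. Hnf4a, a transcription factor shared by hepatocytes and kidney tubule cells, read 12777 on control 2, inside the 9429 to 15132 of the others. What tissue or RNA control 2 holds was not tested. The comparisons below use the other 8 arrays, with controls 1 and 3 as the 2 controls, and the values with control 2 are given beside them.

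On those 8 arrays these genes were among the brightest probe sets, which fits the label liver. Ahsg ranked between 7th and 15th of 45037 probe sets, Alb between 10th and 20th, and the brightest Ttr probe set between 10th and 21st, as positions on the signal scale of an array. The lowest rank of any member was 450, for Serpina6 on DCAC 1. Signals of the members thus lay at the top of the measured range, where the highest signal on an array was 51280 to 84269. Whether probes of this brightness respond in proportion to the transcript was not tested.

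**Figure D1:**
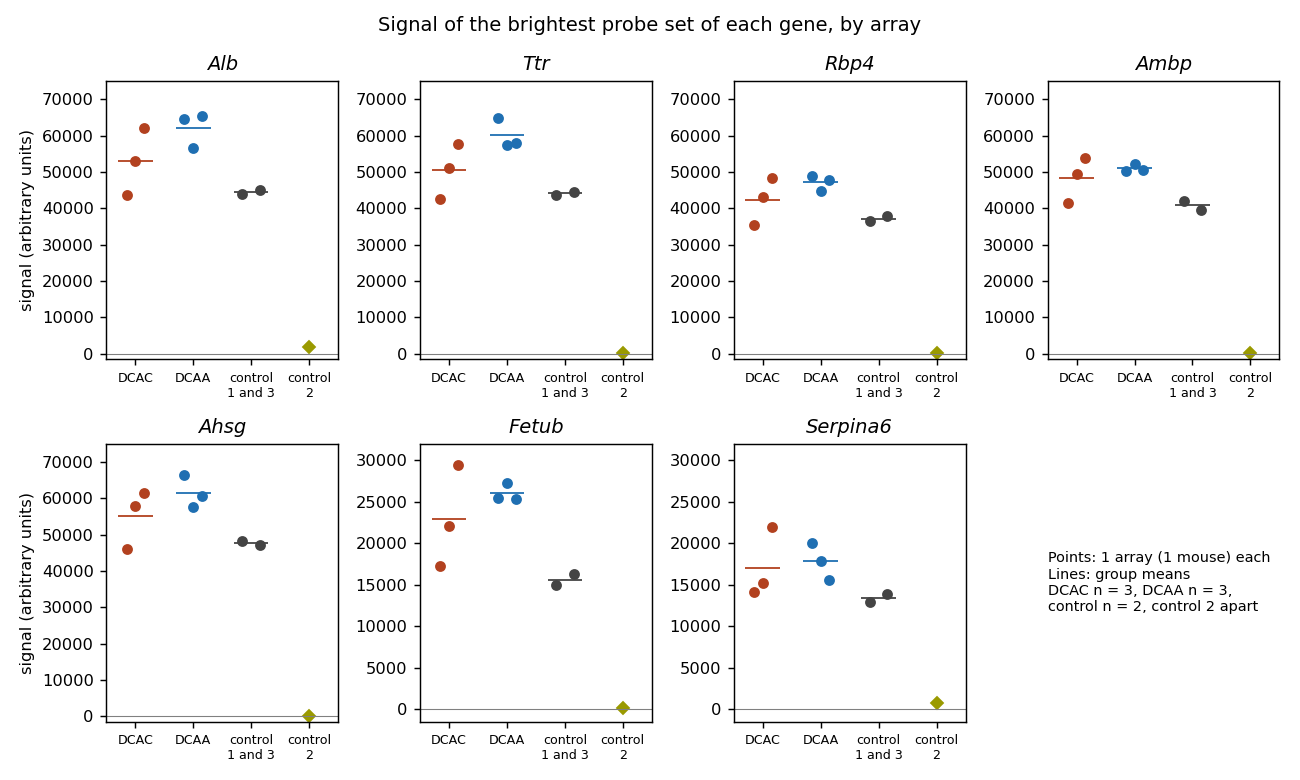
Signal in arbitrary units of the brightest probe set of each of the 7 genes on every array, with 1 point per array and a line at the group mean. For Alb, Ttr, Rbp4, Ambp and Ahsg the DCAC 1 array sits with controls 1 and 3 and all 3 DCAA arrays sit above them, while control 2 lies near 0 in each panel.

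With DCAC, no member had an estimate below controls. All 7 genes had a positive estimate, between 0.18 and 0.52 in log2, and the median over them was 0.24. The highest was Fetub, at 1.44-fold, and the 6 others lay between 1.13-fold and 1.25-fold. In whole liver RNA, a change in the number of hepatocytes and one in the RNA per hepatocyte cannot be told apart. None of the 10 probe sets passed the limma test at an adjusted p under 0.05 over all 24531 probe sets tested, in which 8 probe sets (0.0326%) passed. At an unadjusted p under 0.05, 1 of the 10 probe sets, that of Fetub, was higher and 0 were lower, where 2.47% of all probe sets were higher.

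Among the carrier proteins, Alb had signals of 43741, 52976 and 62207 on DCAC 1, 2 and 3, against 43840 and 45064 on controls 1 and 3. DCAC 1 lay just below both controls and the other 2 DCAC arrays above them. The estimate for Alb was 0.24 in log2 (SE 0.16, 95% interval -0.12 to 0.60, limma adjusted p = 0.978).

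Ttr read 42540, 51010 and 57680 on DCAC 1, 2 and 3, against 43774 and 44528 on controls 1 and 3. Its estimate was 0.18 (interval -0.16 to 0.52), and the other 3 Ttr probe sets stood at 0.06 to 0.12. Rbp4, which encodes the plasma carrier of retinol, read 35383, 43149 and 48430 on DCAC 1, 2 and 3, against 36511 and 37784 on controls 1 and 3. In each of these genes DCAC 1 was the lowest of the 5 arrays and DCAC 3 the highest. The Rbp4 estimate was 0.18 (interval -0.16 to 0.51).

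Serpina6 read 14086, 15195 and 21914 on DCAC 1, 2 and 3, against 12952 and 13880 on controls 1 and 3. Here all DCAC arrays lay above both controls, DCAC 1 only narrowly, and the estimate was 0.32 (interval -0.09 to 0.73, limma adjusted p = 0.968).

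Of the fetuins, Fetub, which encodes an inhibitor of a protease that acts on the egg coat, read 17271, 22081 and 29413 on DCAC 1, 2 and 3, against 14955 and 16260 on controls 1 and 3. The groups did not overlap, and the estimate was 0.52 (SE 0.19, interval 0.11 to 0.94, limma adjusted p = 0.919). Ahsg, which encodes fetuin A, an inhibitor of calcification, read 45926, 57940 and 61431 on DCAC arrays, against 48301 and 47051 on controls 1 and 3. It stood at 0.20 (interval -0.14 to 0.54).

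Ambp, whose product is cut into alpha-1-microglobulin and the protease inhibitor bikunin, read 41482, 49486 and 53817 on DCAC arrays, against 42035 and 39501 on controls 1 and 3. DCAC 1 lay between the controls, and the estimate was 0.24 (interval -0.08 to 0.55). In all, 2 of the 10 probe sets had every DCAC array above both controls, where 11.2% of all probe sets did. The lowest bound of any member's interval was -0.26, at a Ttr probe set, or 16.2% below controls. Without DCAC 3 the median over the 7 genes was 0.12.

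With DCAA, the members' estimates by the authors' scaling were higher than with DCAC and again none was below controls. Estimates ran from 0.32 for Ambp to 0.74 for Fetub in log2, with a median of 0.40 over the 7 genes. Fetub was at 1.67-fold, Ttr at 1.36-fold and Serpina6 at 1.32-fold of controls. None of the 10 probe sets passed the limma test at an adjusted p under 0.05, which 0.0815% of all probe sets did. At an unadjusted p under 0.05, 8 of the 10 were higher and 0 lower, where 6.3% of all probe sets were higher. All 10 had every DCAA array above both controls, where 16.2% of all probe sets did. The members share their array scale, so the 10 are not independent.

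Fetub read 25445, 27220 and 25378 on DCAA 1, 2 and 3, against 14955 and 16260 on controls 1 and 3. The DCAA arrays lay close together and far above the controls, with an estimate of 0.74 (SE 0.19, interval 0.32 to 1.15, limma adjusted p = 0.188). Ahsg read 66358, 57624 and 60500 on DCAA arrays, against 48301 and 47051 on controls 1 and 3, and its estimate was 0.36 (interval 0.02 to 0.70, limma adjusted p = 0.37).

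Alb read 64622, 56478 and 65450 on DCAA 1, 2 and 3, against 43840 and 45064 on controls 1 and 3, with an estimate of 0.48 (SE 0.16, interval 0.12 to 0.84, limma adjusted p = 0.268). Ttr read 64893, 57330 and 57918 on DCAA arrays, against 43774 and 44528 on controls 1 and 3. The brightest Ttr probe set stood at 0.44 (interval 0.10 to 0.78, limma adjusted p = 0.282) and the other 3 at 0.33 to 0.35. The 4 probe sets for this gene thus gave like values.

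Rbp4 read 48812, 44669 and 47754 on DCAA arrays, against 36511 and 37784 on controls 1 and 3, an estimate of 0.34 (interval 0.01 to 0.68). Serpina6 read 20045, 17833 and 15618 on DCAA arrays, against 12952 and 13880 on controls 1 and 3. DCAA 1 was the highest and DCAA 3 the lowest, all above both controls, and its estimate was 0.40 (interval -0.01 to 0.82, limma adjusted p = 0.406). Ambp read 50180, 52068 and 50632 on DCAA arrays, against 42035 and 39501 on controls 1 and 3, an estimate of 0.32 (interval 0.00 to 0.64). The lowest bound of any member's interval was -0.01.

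Most other bright probe sets were also displaced upward. Of 693 probe sets other than members with a mean signal above 10000, 589 had a positive estimate with DCAC and 522 with DCAA, with medians of 0.16 and 0.18, while the median over all 24531 was -0.03 and -0.01. The 16 hepatocyte markers had a median of 0.21 with DCAC and 0.32 with DCAA, with none passing. The signal that 1 probe set in 1000 exceeded was 36700, 43102 and 46611 on DCAC 1, 2 and 3, 45067 to 47983 on the DCAA arrays, and 36065 and 36609 on controls 1 and 3. The members were lowest on the same 3 arrays, DCAC 1 and controls 1 and 3. Their median difference from controls 1 and 3 was -0.02, 0.25 and 0.40 on DCAC 1, 2 and 3 and 0.35 to 0.54 on the DCAA arrays.

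A measure of RNA quality and labelling also moved with these values. Between its 3' and 5' control probe sets, pyruvate carboxylase had a signal ratio of 6.43 to 12.8 on DCAC 3 and the 3 DCAA arrays and of 2.85 to 3.99 on DCAC 1, DCAC 2 and controls 1 and 3. On the 4 arrays with the high ratio the members' median difference from controls was 0.35 to 0.54, and on the 4 with the low ratio it was -0.02 to 0.25. With this ratio class as a block the median over the 7 genes was 0.12 with DCAC and 0.11 with DCAA, and Serpina6 with DCAA stood at -0.18 (interval -0.68 to 0.33). Fetub stood at 0.32 with DCAC (interval -0.01 to 0.65) and at 0.15 with DCAA (interval -0.36 to 0.65) in that fit, against 0.52 and 0.74 without the block. No DCAA array has a low ratio and no control a high one, so that DCAA is then linked to the controls only through the DCAC arrays. The part of the ratio in the result was not tested beyond this.

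**Figure D2:**
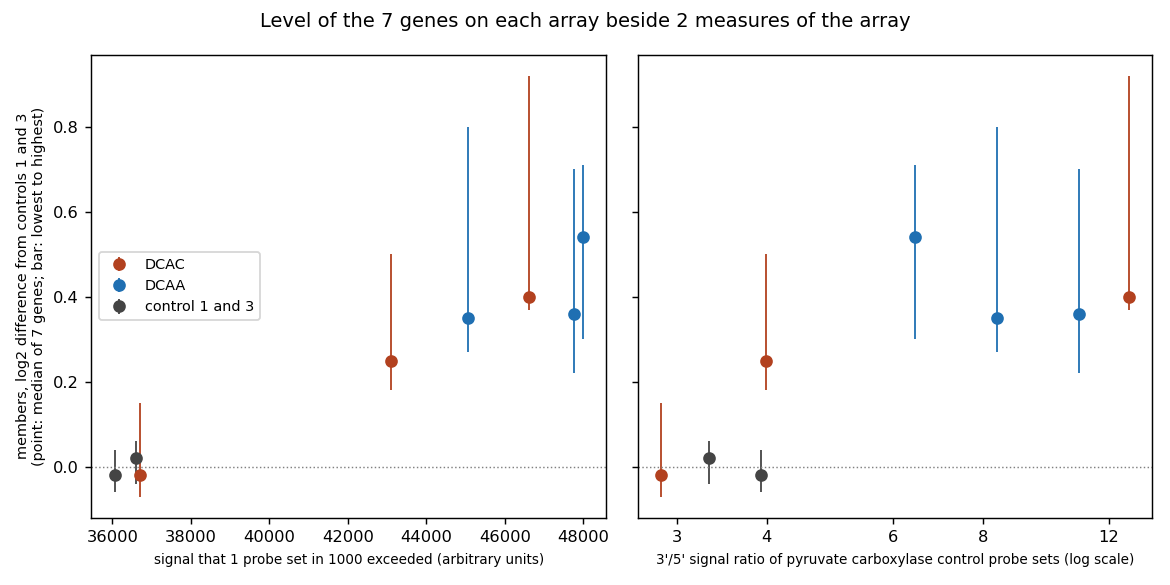
The median log2 difference of the 7 genes from controls 1 and 3 on each of 8 arrays (points, with bars from the lowest to the highest gene), set against the signal that 1 probe set in 1000 exceeded on the left and the 3'/5' ratio of pyruvate carboxylase on a log axis on the right. The 4 arrays with ratios from 6.43 to 12.8 have medians from 0.35 to 0.54, DCAC 2 has a low ratio and a median of 0.25, and DCAC 1 lies with the controls.

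Under quantile normalization, which gives every array the same distribution of signals, 5 of the 7 genes lay close to 0. The median over the 7 genes was -0.00311 with DCAC and 0.04 with DCAA. With DCAA, Alb stood at 0.04 (interval -0.17 to 0.24), Ttr at 0.05, Rbp4 at -0.06, Ahsg at -0.07 and Ambp at -0.10, and with DCAC these 5 genes lay between -0.06 and 0.00337. The sign of Rbp4 and Ahsg thus turned for both compounds, that of Ambp for DCAA, and that of Alb and Ttr for DCAC. Fetub kept a positive estimate, at 0.35 with DCAC (interval 0.00236 to 0.70) and 0.53 with DCAA (interval 0.18 to 0.88, limma adjusted p = 0.238), and so did Serpina6, at 0.17 and 0.27. None passed. Intervals of these 7 genes reached no lower than -0.27 with DCAC and -0.29 with DCAA. The method sets a signal by its rank on the array, so it removes a shift that the brightest probe sets share. These estimates and bounds therefore do not limit such a shift.

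Ranks on the array, which no rescaling of an array changes, showed an upward shift for Fetub and less of one for Serpina6. The other genes overlapped with controls or, for Ambp and Ahsg with DCAA, ranked lower than controls. Fetub ranked 336th, 224th and 158th on DCAC 1, 2 and 3 and 178th to 199th on the DCAA arrays, against 361st and 321st on controls 1 and 3. Only DCAC 1 among the 6 treated arrays lay within the range of the controls. Serpina6 ranked 450th, 399th and 260th on DCAC arrays and 293rd to 353rd on DCAA arrays, against 445th and 412th on controls 1 and 3. Alb ranked 10th to 18th with DCAC and 10th to 15th with DCAA, against 20th and 10th on controls 1 and 3, so the groups overlapped. Ambp ranked 23rd to 24th with DCAC and 28th to 39th with DCAA, against 22nd and 26th on controls 1 and 3. Ahsg ranked 7th to 11th with DCAC and 8th to 15th with DCAA, against 7th on both controls. For Ambp and Ahsg every DCAA array thus ranked lower than both controls, although their signals were higher on those arrays. A rank also depends on the signals of other genes. The serum amyloid A gene Saa1 read above both genes on DCAA 2 and DCAA 3. On DCAA 1 and on controls 1 and 3 Saa1 read below both. Ttr ranked 16th to 20th with DCAC and 10th to 18th with DCAA, against 21st and 13th on controls 1 and 3. Rbp4 ranked 39th to 59th and 43rd to 49th, against 45th and 33rd.

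**Figure D3:**
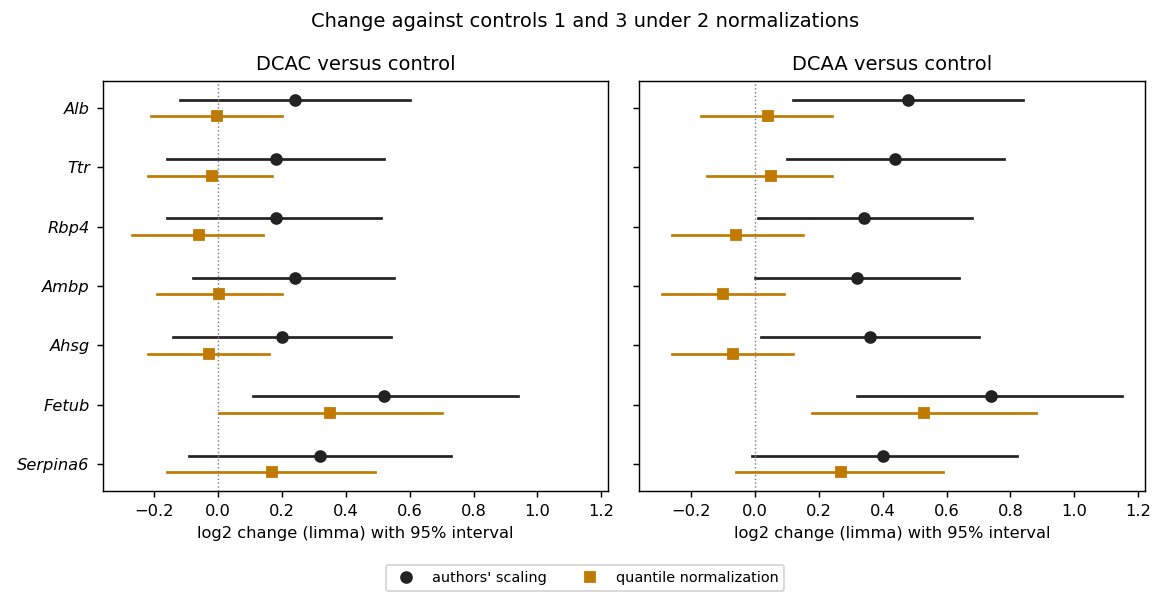
Log2 change of each gene with its 95% interval, for DCAC (left) and DCAA (right) against controls 1 and 3, by the authors' scaling (circles) and after quantile normalization (squares). Alb, Ttr, Rbp4, Ambp and Ahsg move to between -0.10 and 0.05 after quantile normalization, while Fetub stays at 0.35 and 0.53.

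With control 2 kept among the controls, the same comparisons gave large positive estimates with wide intervals. The 7 genes stood at 1.68 to 3.36 in log2 with DCAC and at 1.77 to 3.62 with DCAA, with standard errors of 0.92 to 2.08. None passed the limma test, at adjusted p = 0.765 for DCAC and 0.438 to 0.485 for DCAA, and 0 of 25146 probe sets passed in either comparison. At an unadjusted p under 0.05 there were 1336 probe sets with DCAC and 3025 with DCAA. These sizes come from the low signals on control 2 given above.

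DCAC and DCAA both carry the dichloroacetyl group and differ in the leaving group, chloride in DCAC and dichloroacetate in DCAA. They were given at the same molar dose and times, and this 1 pair of compounds was compared. The leaving group of DCAA holds the dichloroacetyl group as well, so an equal molar dose is not an equal amount of that group. DCAC stood below DCAA for each of the 7 genes, by -0.08 for Serpina6 to -0.26 for Ttr in log2, and none passed (limma adjusted p = 0.566 to 0.889), where 0.00408% of all probe sets did. At an unadjusted p under 0.05 no member passed, and 9.28% of all probe sets did.

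Ttr averaged 50410 ± 7588 with DCAC and 60047 ± 4207 with DCAA (SD, n = 3 each), a difference of -0.26 (interval -0.56 to 0.04). Alb averaged 52975 ± 9233 with DCAC and 62183 ± 4958 with DCAA (SD, n = 3 each), a difference of -0.24 (interval -0.56 to 0.08). Fetub averaged 22921 ± 6115 with DCAC and 26014 ± 1044 with DCAA (SD, n = 3 each), a difference of -0.22 (interval -0.59 to 0.16). In each of these the SD of DCAC was the larger, with DCAC 1 at the low end. Of the 10 probe sets 2, both of Ttr, had every DCAC array below every DCAA array, where 7.63% of all probe sets did. The intervals include 0 for all 7 genes and allow DCAC to lie up to 33.4% below DCAA, which does not show that the compounds act alike. The direction depended on the fit. When arrays were blocked by 3'/5' ratio, 6 of the 7 genes turned positive, up to 0.30 for Serpina6, with a median of 0.04, and against a common array median Ahsg, Rbp4, Ambp and Serpina6 did, at 0.02 to 0.10. Without DCAC 1 the median was -0.04, against -0.17 with it.

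Setting the 6 treated arrays against the 2 controls gave no call either. The 7 genes stood between 0.26 for Rbp4 and 0.63 for Fetub in log2, with a median of 0.31, and 0.0734% of all probe sets passed. Fetub had an interval of 0.25 to 1.01 (limma adjusted p = 0.415), and Alb stood at 0.36 (interval 0.02 to 0.70). At an unadjusted p under 0.05, 4 of the 10 probe sets were higher, where 4.13% of all were. Every treated array lay above both controls for 2 of the 10 probe sets, those of Fetub and Serpina6, where 5.18% of all did.

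The members varied together across the 8 arrays. Over their 21 pairs Pearson's r of the log2 signals was 0.806 (Alb and Serpina6) to 0.987 (Alb and Rbp4), with a median of 0.913, as a description over 8 arrays that share their scaling. After quantile normalization r ran from -0.627 for Ahsg and Fetub to 0.887 for Fetub and Serpina6, with a median of 0.206. The value for Ahsg and Fetub is the extreme of 21 pairs over 8 arrays, and a part of their position on the chromosome was not tested.

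The 6 genes whose brightest probe set followed the members' mean most closely, among 11467 genes ranked, all encode secreted proteins. They were Vtn (vitronectin, r = 0.988), Apoc3 (an apolipoprotein, 0.987), Plg (plasminogen, 0.984), Cfi (complement factor I, 0.984), Hrg (histidine-rich glycoprotein, 0.983) and Selenop (selenoprotein P, 0.983), over 8 arrays. Their mean signals lay between 31207 and 47021. With DCAA they stood at 0.34 to 0.56 and with DCAC at 0.21 to 0.36, none passing. They were picked for their likeness on these same arrays, so changes like those of the members follow from the choice. The ranking used the authors' scaling only, which all bright probe sets of an array share, and was not repeated after quantile normalization.

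Further genes known to decline in the acute phase gave a like picture. Of 9 measured genes on that list none passed in either direction, and the median was 0.23 with DCAC and 0.44 with DCAA. The DCAA median was 0.11 with quantile normalization and 0.06 with the ratio class as a block. Igf1, a growth factor made by the liver, stood at 0.34 with DCAC and 0.54 with DCAA, Serpinc1, antithrombin, at 0.35 and 0.52, and Hrg at 0.31 and 0.49. Apom, which encodes a carrier of sphingosine 1-phosphate in lipoproteins, was the exception. Its signals were 9349, 9551 and 7000 with DCAC and 6820, 4876 and 2762 with DCAA, against 7214 and 7344 in controls 1 and 3. All DCAA arrays lay below both controls, at -0.69 (interval -1.32 to -0.06, limma adjusted p = 0.359). DCAC 3, at 7000, lay below both controls as well. Of the 8 arrays, each in the high class of the pyruvate carboxylase ratio thus read lower for Apom than each in the low class. The part of this ratio in the Apom difference was not tested.

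Relatives and neighbours in the same clusters did not pass either. Of 7 measured, the median was 0.28 with DCAC and 0.44 with DCAA. Quantile normalization gave 0.07 and 0.16, and the ratio class as a block 0.08 with DCAA. Kng1, which encodes kininogen, stood at 0.45 with DCAC and 0.56 with DCAA, Serpina1c, an antitrypsin gene, at 0.28 and 0.59, and Serpina12, vaspin, at -0.54 and -0.35. For Serpina12 controls 1 and 3 read 1322 and 741, and control 3 lay inside the 626 to 974 of the treated arrays.

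Genes for partners of these proteins and for the handling of their cargo had medians of 0.17 with DCAC and 0.22 with DCAA over 13 measured, with none passing. Quantile normalization gave 0.05 and 0.08. Itih4, which encodes a relative of the heavy chains bound by bikunin and rises in the acute phase, stood at 0.60 with DCAC and 0.76 with DCAA (limma adjusted p = 0.587 and 0.121). Dio1, which activates thyroxine, stood at 0.64 and 0.70. Vdr, the vitamin D receptor, stood at 0.47 with DCAC and 1.33 with DCAA, from signals of 90.6 to 241 on treated arrays and 42.0 and 152 on controls. Lrat, which esterifies retinol in stellate cells, stood at -0.80 and -0.21.

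Of 12 transcription factors measured, none passed, and the medians were 0.19 with DCAC and 0.09 with DCAA. Blocking by 3'/5' ratio turned the DCAA median to -0.35. Dbp, named for its binding to the D site of the albumin promoter and known as a gene of the circadian output, read 1090, 232 and 3404 with DCAC and 2245, 565 and 783 with DCAA, against 195 and 162 in controls 1 and 3. Every treated array lay above both controls, but the spread within groups was wide, and the estimates were 2.42 with DCAC and 2.49 with DCAA (limma adjusted p = 0.855 and 0.262). Onecut1 stood at 1.14 and 0.73, Foxa3 at -0.15 and -0.71, and Prox1 at -0.25 and -0.57. Controls 1 and 3 lay apart for Onecut1, at 806 and 257 against 432 to 1714 on treated arrays. The same held for Prox1, at 1019 and 590 against 396 to 917.

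Some positive acute phase genes behaved otherwise on the same arrays. Of 25 measured, 6 were called higher with DCAC and 8 with DCAA and none lower, with medians of 0.60 and 0.76. Over all probe sets, 0.0326% passed with DCAC and 0.0815% with DCAA. These calls depended on the fit: both counts were 0 with eBayes without trend and 0 without the filter on low signals, and with the ratio class as a block they were 1 and 0. This list was chosen with earlier results of these data known. Saa1, a serum amyloid A gene, read 46752, 56348 and 65821 with DCAC and 19481, 59707 and 68791 with DCAA, against 2954 and 3698 in controls 1 and 3. It rose by 4.08 with DCAC and 3.70 with DCAA in log2 (limma adjusted p = 0.00308 and 0.00586). Saa2 rose by 4.59 and 3.98, Lcn2, a siderophore-binding lipocalin, by 3.72 with DCAC, and Orm2, an orosomucoid, by 3.43 with DCAC. Saa1 and Saa2 are near-identical, so their probe sets may share signal. Other genes on the list stood within or below the range of the members, such as Fga at 0.14 with DCAC and 0.27 with DCAA and Hpx at 0.17 and 0.43. Hamp stood at -0.28 and -0.44. Leaving out control 1 took both counts to 0, and leaving out control 3 gave 2 with DCAC and 1 with DCAA. The DCAC count was 3 when DCAC 2 was left out and 1 when DCAC 3 was, and the DCAA count was 3 when DCAA 2 was left out and 1 when DCAA 3 was. Markers of neutrophils, which also hold Lcn2 RNA, had a summed signal of 2689 to 2925 with DCAC and 1881 to 4358 with DCAA, against 1322 and 1745 in controls 1 and 3, over 9 of 10 markers with a probe set. The markers did not move evenly. Of the 7 kept for the test, 6 had a positive estimate with each compound and none passed. Estimates with DCAC ran from -0.11 for Ngp to 2.77 for Prtn3. The part of neutrophils in these changes was not tested.

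**Figure D4:**
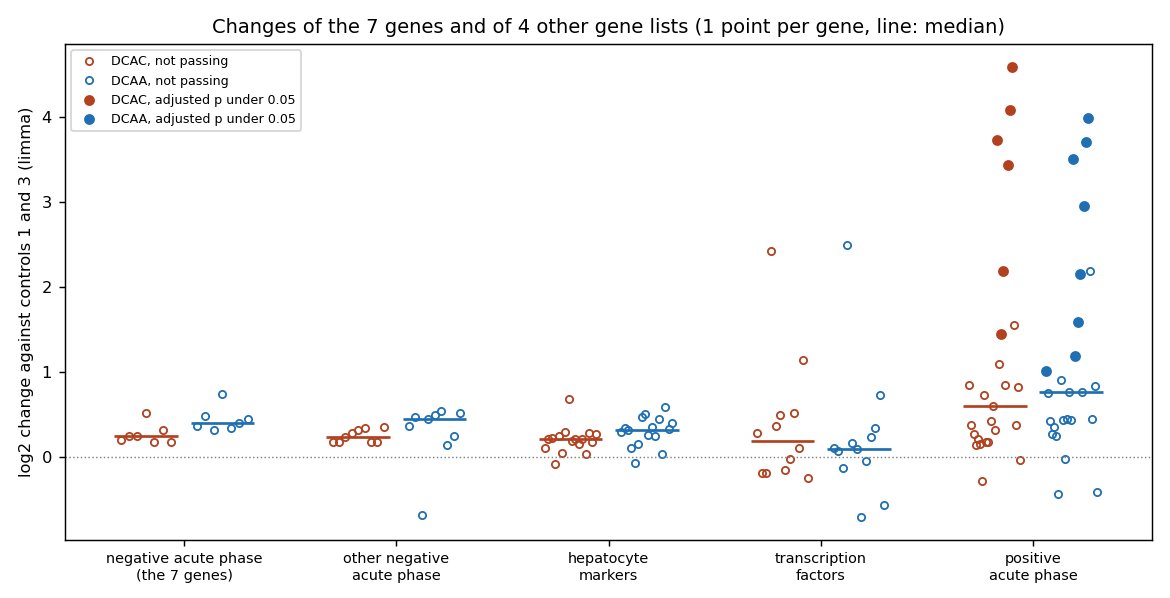
Log2 change against controls 1 and 3 for each gene of 5 lists with DCAC and DCAA, with 1 point per gene, filled where the limma adjusted p is under 0.05, and a line at the median. The 7 genes lie between 0.18 and 0.74 with none filled, and 6 and 8 of the 25 positive acute phase genes are filled.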

How the data were processed

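Total RNA was reverse transcribed from an oligo-dT primer, transcribed in vitro and hybridised to Affymetrix arrays, 1 per mouse, per the labels' protocols. Each deposited file gives linear signal intensity, which the authors obtained with GCOS, per the submitters' processing notes. After trimming 2% at either end, the mean of every array was 500.0. Detection calls were not used. No pair of arrays had identical values.

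The 64 control probe sets were left out of the tests. Of the others, 34945 carry 1 gene symbol, 932 several and 9160 none in the array's annotation. Signals below the 25th percentile of an array were raised to it, log2 was taken, and a probe set stayed in where it exceeded the median of its array on 3 or more arrays: 24531 with 8 arrays, all 10 member probe sets among them. The brightest probe set stands for a gene.

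Tests used limma 3.58.1 under R 4.3.3, with lmFit and an eBayes step that allows a trend with intensity, 3 groups in 1 model without covariates, or 2 groups for treated against control. P-values are two-sided, Benjamini-Hochberg adjusted over all probe sets kept, with 0.05 as the threshold. The fit was tested on simulated data for DCAC against control, with 200 changed probe sets drawn at random and noise independent between probe sets. At 1.5-fold 0 of the 200 were called, at 2-fold 12.5% and at 4-fold 73.5%. The members' DCAC estimates lie below the smallest of these changes, and DCAA was not simulated. The members are brighter than most probe sets and share an array level, which the simulation leaves out. A missing call here does not show a missing change. Each group holds separate mice, whose number limits the precision. The members, lists, named genes and alternatives, and leaving control 2 out of the main fit, were chosen with earlier results of these data known. Named genes are all members, up to 4 genes per list by size of change, and the 6 genes most like the members. Hnf4a, Umod, Fga, Hpx and Hamp were named after their values were seen. Alternatives are given in the closing section. Between groups, arrays of equal replicate number had deviations from their group means that correlated at -0.0408 to 0.0275, against -0.0664 to 0.0736 for unequal numbers, so replicate numbers were not treated as pairs. Promoter sequences are from RefSeq (GRCm38.p6) and were matched for 5 of the 7 genes.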

Additional observations from a re-analysis of the deposited data

Results flagged for a closer look

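Within the 6 treated arrays, the Ambp signal of DCAC 1 lay apart from the rest. On a log scale its gap to the nearest array was 0.678 of the whole range, above Dixon's 95% critical value for 6 samples. Chance exceeds that value in about 1 of 20 groups when a single gene is named beforehand. Ambp was flagged for its value, and the 6 arrays pool both compounds, so this rate does not apply here. The Ambp signal was 41482 on DCAC 1 and 49486 to 53817 on the other 5. DCAC 1 was also the lowest of the 6 for every other member, so the low level was not particular to Ambp.

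A signal was also seen on control 2, outside the main comparisons. The summed signal of 13 kidney markers was 213320 on control 2 against 1395 to 1736 on controls 1 and 3. Its cause was not tested.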

How the results depend on the processing

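No member passed the test in any of the 4 comparisons under any of the 12 alternatives (11 for treated against control, whose model already holds only the groups compared) or without any 1 of the 8 arrays, and the lowest adjusted p of a member was 0.368 for DCAC, 0.0553 for DCAA, 0.307 for DCAC against DCAA and 0.0787 for treated against control. Leaving out each array gave medians over the 7 genes of 0.12 to 0.34 with DCAC, 0.33 to 0.45 with DCAA, -0.28 to -0.04 for DCAC against DCAA and 0.27 to 0.38 for all treated. It turned Serpina6 and Ambp between the compounds, where Serpina6 ran from -0.28 to 0.04 and Ambp from -0.17 to 0.02. With the replicate block the medians were 0.22, 0.44, -0.17 and 0.32 in the same order, and the block changed no call of a member.

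Quantile normalization gave medians of -0.00311 with DCAC, 0.04 with DCAA and 0.01 for all treated. Signs turned with DCAC for Ahsg (-0.03), Alb (-0.00311), Rbp4 (-0.06) and Ttr (-0.02), with DCAA for Ahsg (-0.07), Ambp (-0.10) and Rbp4 (-0.06), for all treated for Ahsg (-0.05), Ambp (-0.05) and Rbp4 (-0.06), and between the compounds for Ahsg (0.04) and Ambp (0.10). A common median gave 0.02 as the median between the compounds and turned Ahsg (0.02), Ambp (0.10), Rbp4 (0.02) and Serpina6 (0.10). Blocking on the 3'/5' ratio class gave medians of 0.11 with DCAA, 0.04 between the compounds and 0.12 for all treated. It turned Serpina6 with DCAA (-0.18), and between the compounds Ahsg (0.000999), Alb (0.00372), Ambp (0.08), Fetub (0.18), Rbp4 (0.04) and Serpina6 (0.30). With all 9 arrays the medians were 2.77 with DCAC, 2.86 with DCAA and 2.82 for all treated, through the low signals of control 2. The median difference of control 2 from controls 1 and 3 was -7.61 in log2, or -7.85 with quantile normalization and -7.41 with the offset of 32. The cause of the other shifts was not tested.

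For the lists, medians with quantile normalization were 0.07 with DCAC and 0.16 with DCAA for relatives and neighbours, 0.05 and 0.08 for partners and cargo genes, 0.42 and 0.44 for positive acute phase genes, and 0.11 with DCAA for the other negative acute phase genes. Blocking on the ratio class gave DCAA medians of 0.08 for relatives and neighbours, 0.13 for partners and cargo genes, 0.55 for positive acute phase genes, 0.06 for the other negative acute phase genes and -0.35 for transcription factors.

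The count of positive acute phase genes called was 6 with DCAC, 8 with DCAA and 8 for all treated. With all 9 arrays it was 0 in each, as it was with eBayes without trend. With the ratio class as a block it was 1, 0 and 4 in that order. Without the filter it was 0 with DCAC and 0 with DCAA. For DCAA it was 5 with a common median, 5 with only the groups compared and 13 with array weights, which also gave 13 for all treated. Leaving out each array gave 0 to 6 with DCAC, 0 to 11 with DCAA and 3 to 10 for all treated. Among partners and cargo genes array weights called 1 with DCAA and 1 for all treated, and leaving out an array 0 to 1 for all treated. Arrays give no read depth. The members lie far above background on 8 arrays, so the floor and the offset moved none of them, and the number of mice limits what could be seen.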

Other observations

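Among the 6 treated arrays the positive acute phase genes were not all lowest on the same one. Of the 25 measured, 12 were lowest on DCAC 1 and 8 on DCAA 1. DCAA 1 had the lowest Saa1 signal of the 6 treated arrays, 19481 against 46752 to 68791 on the other 5, and the lowest Saa2 signal, 7524. On the same array Ahsg, at 66358, Rbp4, at 48812, and the brightest Ttr probe set, at 64893, were the highest of the 6. Alb was highest on DCAA 3, as were some other Ttr probe sets, and Fetub, Serpina6 and Ambp were highest on DCAC 3. The signal that 1 probe set in 1000 exceeded was also highest on DCAA 1, at 47983. A relation between these values was not tested. DCAC 1, the treated array with the lowest Alb, Ttr, Rbp4, Ahsg, Fetub, Serpina6 and Ambp, had a Saa1 signal of 46752.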
